A study of Mus musculus with 18 samples.

Results

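The 7 stromelysin and collagenase genes that lie side by side on mouse chromosome 9 (Mmp3, Mmp10, Mmp12, Mmp13, Mmp8, Mmp1a and Mmp1b) were followed in cultured mammary fibroblasts. They were chosen by symbol and are 7 of the 55486 genes in the count table. All 7 passed the filter on low counts and were tested among 14273 genes. Normal fibroblasts (NFs) came from mammary glands of adult female FVB/n mice, with several mice pooled per sort, as cells without EpCAM, CD49f, CD45 and CD31, and were split by CD26, a surface peptidase encoded by Dpp4. CD26- and CD26+ NFs were grown on collagen I and kept for 7 days in control medium (3 libraries of each cell type) or in medium conditioned by tumour cells (tumour CM, 6 libraries of each cell type). The tumour CM came from 6 cell lines derived from end-stage tumours of a mouse model of invasive lobular carcinoma, in which Cre driven by the Wap promoter of mammary epithelium (WapCre) deletes floxed alleles that include Cdh1, the gene of E-cadherin. The control medium is also labelled as conditioned. The tumour lines were cultured with EGF, insulin and cholera toxin, and whether the control medium held these was not given in the sources used here, so products of the tumour cells and additives of their medium cannot be told apart. The lines 13-MCB-17, 10-SJK-221, 18-MCB-12, 13-MCB-44, 13-MCB-90 and 13-MCB-138 were each used once on CD26- and once on CD26+ NFs. The labels give the fibroblasts' genotype only as FVB/n. Per the study's methods their donors were mice without WapCre that carried floxed alleles, Cdh1 F/F among them, or mTmG reporter mice, both on FVB/n, and which donors gave which library was not stated. A group in tumour CM holds the spread between tumour lines as well as that between cultures. Mmp3, Mmp10, Mmp12 and Mmp13 reached the level that the filter asks for in at least 3 libraries (0.785 CPM, counts scaled by raw library size) in all 18 libraries. Mmp8, Mmp1a and Mmp1b passed only through tumour CM libraries, and Mmp1a through 3 of CD26+ and 1 of CD26- cells. Whether libraries of a group came from separate sorts was not given, so p-values measure the spread between these cultures.

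Matrix metalloproteinases are zinc proteases, mostly secreted as inactive proenzymes, that cut proteins of the extracellular matrix. Stromelysins (Mmp3 and Mmp10) cut a wide range of matrix proteins and can activate other proenzymes, whereas collagenases (Mmp13, Mmp8, Mmp1a and Mmp1b) are named for cutting fibrillar collagen, and Mmp12 is the elastase first known from macrophages. In fibroblasts, stromelysin and collagenase transcription is classically induced by inflammatory cytokines and growth factors through AP-1, the dimer of Fos and Jun proteins, often beside Ets factors. Mmp8 is best known from neutrophils and Mmp12 from macrophages.

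In GRCm38 coordinates the 7 genes span 296 kb, in the order Mmp13 (ENSMUSG00000050578, 7272514 to 7283331), Mmp12 (ENSMUSG00000049723, 7344381 to 7369499), Mmp1b (ENSMUSG00000041620, 7368239 to 7388047), Mmp3 (ENSMUSG00000043613, 7445822 to 7455975), Mmp1a (ENSMUSG00000043089, 7464141 to 7476869), Mmp10 (ENSMUSG00000047562, 7502352 to 7510240) and Mmp8 (ENSMUSG00000005800, 7558456 to 7568485). Mmp1b is on the minus strand and the others on the plus strand. Mmp12 and Mmp1b overlap by 1261 bases, of which 157 lie in exons of both. The library kit kept strand, but the strand setting of the counting was not given in the sources used here, so reads from that stretch could have gone to either gene. Mmp1a and Mmp1b also share 120 windows of 65 bases, the read length, which is 5.93% of the windows of Mmp1a and 8.66% of those of Mmp1b. Mmp3 and Mmp10 share 95 such windows, 5.47% and 5.73% of theirs, and Mmp13 and Mmp8 share none with any other gene.

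The stretch just before the transcription start is shown for each gene, because the letters that AP-1 binds recur there. The sequences are from RefSeq (GRCm38.p6, a C57BL/6J reference, whereas the cells were FVB/n), are written 5′ to 3′ on the gene's strand, and end at the base before the start. Capitals mark TGANTCA (AP-1) and AGGAAG (Ets) on either strand and TATAAA, as in a core promoter, on the gene's strand, and no marked stretch overlaps another. Mmp12 has 2 starts in the table, the upstream one first.
Mmp3 (chr9:7445692-7445821, plus strand): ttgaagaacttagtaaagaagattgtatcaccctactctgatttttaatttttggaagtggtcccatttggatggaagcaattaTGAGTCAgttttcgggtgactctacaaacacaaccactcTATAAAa
Mmp10 (chr9:7502212-7502341, plus strand): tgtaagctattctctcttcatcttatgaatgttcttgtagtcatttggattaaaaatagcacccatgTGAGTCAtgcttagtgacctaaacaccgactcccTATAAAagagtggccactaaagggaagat
Mmp13 (chr9:7272384-7272513, plus strand): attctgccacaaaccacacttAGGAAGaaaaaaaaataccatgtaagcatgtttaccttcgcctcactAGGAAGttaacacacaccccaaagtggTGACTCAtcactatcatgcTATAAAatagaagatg
Mmp1a (chr9:7464011-7464140, plus strand): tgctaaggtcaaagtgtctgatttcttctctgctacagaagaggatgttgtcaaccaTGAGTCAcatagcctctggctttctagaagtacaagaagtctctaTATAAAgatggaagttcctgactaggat
Mmp1b (chr9:7388027-7388156, minus strand): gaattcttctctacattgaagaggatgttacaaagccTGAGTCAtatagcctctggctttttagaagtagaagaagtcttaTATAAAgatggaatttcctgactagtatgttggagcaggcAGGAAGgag
Mmp8 (chr9:7558299-7558428, plus strand): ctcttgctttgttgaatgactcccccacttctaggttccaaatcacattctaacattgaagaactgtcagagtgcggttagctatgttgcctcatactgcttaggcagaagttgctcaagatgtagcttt
Mmp12, upstream start (chr9:7344267-7344396, plus strand): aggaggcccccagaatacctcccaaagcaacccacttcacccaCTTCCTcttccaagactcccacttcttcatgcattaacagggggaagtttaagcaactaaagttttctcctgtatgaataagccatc
Mmp12, downstream start (chr9:7347244-7347373, plus strand): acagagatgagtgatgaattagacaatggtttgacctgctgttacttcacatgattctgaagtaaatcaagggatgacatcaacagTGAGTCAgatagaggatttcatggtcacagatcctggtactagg

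Within 250 bases before the start, 6 of the 8 promoters and 6 of the 7 genes held TGANTCA, against 6.75% of all 32851 RefSeq promoters. The match began 35 bases before the RefSeq start in Mmp13, 44 at the downstream start of Mmp12, 46 in Mmp3, 63 in Mmp10, 73 in Mmp1a and 93 in Mmp1b. These distances depend on the start chosen: for Mmp1b it was 7388026, whereas the gene as listed above begins at 7388047. Mmp13 carried TGACTCA and the others TGAGTCA. Mmp8 and the upstream start of Mmp12 held no such match in this window. AGGAAG was found in 5 of the 8 promoters, against 29.5% of all, and TATAAA in 5 of the 8, against 7.59%. The AGGAAG matches of Mmp3 and Mmp8, at 183 and 220 bases before the start, lie outside the 130 bases shown. All matches named here are letters in a reference sequence, and binding was not measured.

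Total counts were 9725723 to 14585349 per library. Fibroblast markers were detected in full (12 of 12), but so were epithelial ones: the summed level of 10 epithelial markers was 4316 to 4766 CPM (counts scaled by TMM-adjusted library size) in CD26- NFs in control medium and 2739 to 4472 in tumour CM, and 695 to 1269 and 640.0 to 1539 in the CD26+ NFs of the same 2 media. Epcam, which the sort excluded, averaged 231 ± 10.7 CPM (SD, n = 3) in CD26- NFs in control medium. In these bulk samples, fewer cells of a type and less RNA per cell cannot be told apart.

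Tumour CM was compared with control medium first in CD26- NFs. Of the 7 genes, 4 rose (Mmp3, Mmp10, Mmp13 and Mmp8) and 1 fell (Mmp12) at a false discovery rate (FDR, edgeR quasi-likelihood test with Benjamini-Hochberg adjustment over all tested genes) under 0.05. Among all genes tested, 7.88% rose and 7.28% fell. In CD26+ NFs all 7 genes rose. The shares of all genes tested there were 15.2% higher and 13.4% lower. Mmp8, Mmp1a and Mmp1b were tested only because of their levels in tumour CM, so the counts and medians of the 7 genes are not read against those of all genes. Among the 4 genes at the filter level in every library, the CD26- cells had 3 higher and 1 lower, and the CD26+ cells 4 higher, with median log2 fold changes of 2.50 and 4.44. The median log2 fold change of the 7 genes was 1.91 in CD26- and 5.06 in CD26+ NFs, where that of all tested genes was 0.01 and -0.00; with Mmp1b set to the lower bound given below, the CD26+ median was 3.95. The 5.06 is the fitted value of Mmp1a, which had 1 count in the CD26+ controls.

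**Figure D1:**
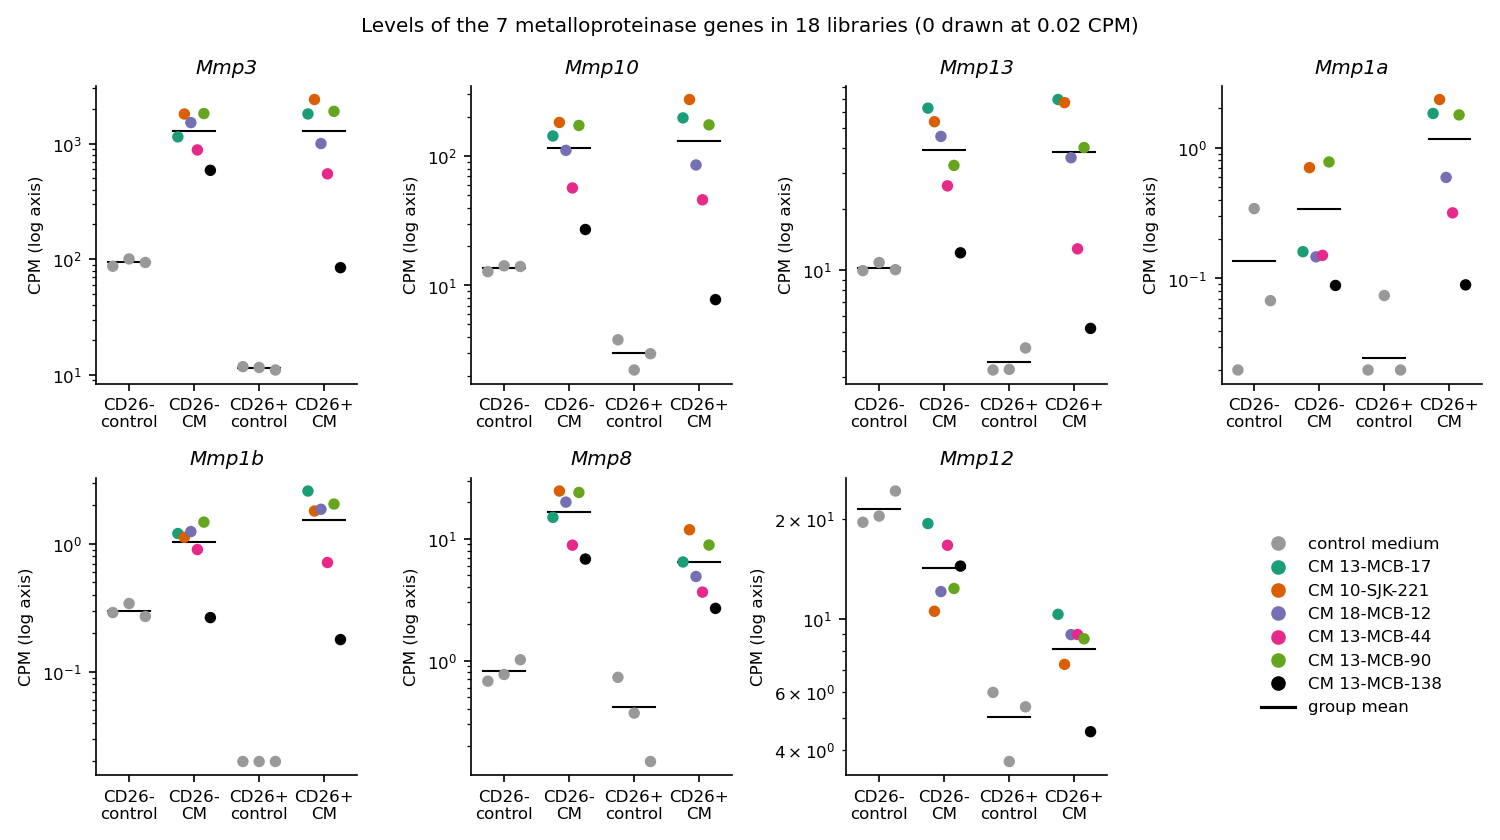
Levels of the 7 genes in each of the 18 libraries, in CPM on a log axis, by cell type and medium; each point is a library, coloured by the tumour line that gave the CM, lines are group means, and a value of 0 is drawn at 0.02 CPM. Mmp3 ran from 87.1 to 100.8 CPM in CD26- controls and from 11.1 to 11.8 in CD26+ controls, and all 12 tumour CM libraries lay above the controls of their own cell type.

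Mmp3, stromelysin-1, was the most abundant of the 7 genes per length in every group. CD26- NFs in control medium held 87.1, 100.8 and 93.9 CPM, and those in tumour CM 588 to 1818 CPM with a median of 1331. CD26+ NFs in control medium held 11.8, 11.6 and 11.1 CPM, and those in tumour CM 84.7 to 2404 CPM with a median of 1403. No control library overlapped the tumour CM libraries of its cell type, and the CD26+ controls were the lowest of the 4 groups. The rise was 3.78 ± 0.73 on the log2 scale (SE, edgeR FDR = 0.00273) in CD26- NFs and 6.81 ± 0.88 (edgeR FDR = 2.52e-05) in CD26+ NFs. Ranked among 14260 genes by mean CPM per kb of exon, Mmp3 moved from rank 763 to 21 in CD26- and from 5985 to 30 in CD26+ NFs.

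Mmp10, stromelysin-2, followed Mmp3 at a lower level. Its CPM was 12.8, 14.2 and 14.0 in CD26- controls and 27.1 to 182 (median 127) in tumour CM. In CD26+ NFs it was 3.80, 2.22 and 2.97 CPM in control medium and 7.77 to 273 (median 129.7) in tumour CM. Both cell types thus showed a tumour CM range that lay fully above the controls. The log2 fold change was 3.08 ± 0.82 (edgeR FDR = 0.0186) in CD26- and 5.45 ± 1.01 (edgeR FDR = 0.000709) in CD26+ NFs. Leaving out any single CD26- control library ended the call in CD26- NFs, with edgeR FDR of 0.0736, 0.0639 and 0.0841 without replicates 1, 2 and 3.

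Among the collagenases, Mmp13 (collagenase-3) was at 9.97, 10.9 and 10.1 CPM in CD26- controls and at 12.2 to 62.8 (median 39.2) in tumour CM. It was at 3.24, 3.26 and 4.16 CPM in CD26+ controls and at 5.18 to 69.2 (median 38.0) in tumour CM. The ranges did not overlap in either cell type. The rise was 3.43 ± 0.73 on the log2 scale (edgeR FDR = 0.00216) in CD26+ NFs. In CD26- NFs it was 1.91 ± 0.63 and stood at the edge of the call (edgeR FDR = 0.0491), which was lost in 12 of 18 fits that left out a single library (replicates 1, 2, 3, 4, 5, 6, 8, 10, 11, 12, 15 and 17), with an edgeR FDR of up to 0.160.

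Mmp8, the neutrophil collagenase, was close to absent in control medium, with 0.678, 0.769 and 1.02 CPM (7 to 15 counts) in CD26- NFs and 0.728, 0.370 and 0.148 CPM (2 to 9 counts) in CD26+ NFs. In tumour CM it reached 6.81 to 24.6 CPM (median 17.5) in CD26- NFs and 2.68 to 11.9 CPM (median 5.67) in CD26+ NFs. Its log2 fold changes were 4.29 ± 0.60 (edgeR FDR = 0.000348) and 3.95 ± 0.72 (edgeR FDR = 0.000628). The summed level of 10 neutrophil markers moved in the same direction, from 2.05 to 2.50 CPM in CD26- controls to 4.16 to 17.1 in tumour CM, and from 1.05 to 1.63 to 6.26 to 13.9 CPM in CD26+ NFs. Of its 3 tested genes, Camp and S100a8 rose in both cell types and Ltf in CD26- NFs, while Ly6g, Elane, Csf3r, Retnlg and Cxcr2 held at most 3 counts in every library. Mpo held at most 6 counts in a library, and S100a9 reached 14 in CD26- NFs in tumour CM against at most 2 in the other groups. The part of these markers in the Mmp8 result was not tested.

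The 2 mouse genes related to human interstitial collagenase, Mmp1a and Mmp1b, were rare throughout. Both passed the filter only through tumour CM libraries, so the FDRs of their rise are not independent of it. Mmp1b had 3 to 4 counts per library in CD26- controls and 0 counts in all 3 CD26+ controls, and 3 to 19 and 2 to 34 counts in tumour CM. Its mean in tumour CM was 1.53 ± 0.898 CPM (SD, n = 6) in CD26+ NFs, at least 6.67-fold above a floor of 3 counts per control library (edgeR FDR = 0.000684). In the 13-MCB-138 library of that group Mmp1b was at 0.179 CPM, below the mean floor of 0.229 CPM. In CD26- NFs its log2 fold change was 1.77 ± 0.70 and missed the threshold (edgeR FDR = 0.0975), but passed with only the 2 CD26- groups fitted (edgeR FDR = 0.0292) and without both 13-MCB-138 libraries (edgeR FDR = 0.00688). Mmp1a had 0, 4 and 1 counts in CD26- controls and 1 to 10 in tumour CM, and its difference there, 1.28 ± 1.19 on the log2 scale, was not detectable at this depth (edgeR FDR = 0.506). In CD26+ NFs it had 1 count in the 3 control libraries together and 87 in the 6 tumour CM libraries. The ratio per library size was 46.6, with an exact 95% interval of 8.15 to 1861 that covers counting error only (edgeR FDR = 0.00786).

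Mmp12, the macrophage elastase, stood apart from the other 6 genes. Its CPM was 19.6, 20.4 and 24.3 in CD26- controls and 10.5 to 19.4 (median 13.4) in tumour CM. In CD26+ NFs it was 5.99, 3.70 and 5.42 CPM in control medium and 4.56 to 10.3 (median 8.82) in tumour CM. Tumour CM libraries lay below the controls in CD26- NFs, whereas the ranges overlapped in CD26+ NFs through the library in 13-MCB-138 medium. Mmp12 fell by 0.60 on the log2 scale in CD26- NFs (edgeR FDR = 0.0494) and rose by 0.70 ± 0.24 in CD26+ NFs (edgeR FDR = 0.0357). Leaving out a single library ended the first call in 14 of 18 fits, all but those without replicates 4, 7, 13 and 18, with an edgeR FDR of up to 0.231, and the second in 6 (replicates 11, 12, 13, 15, 16 and 17, up to 0.200). A fit of the 2 CD26+ groups alone also ended the second (edgeR FDR = 0.0649). The summed level of 12 macrophage markers was 41.5 to 47.0 and 38.7 to 56.2 CPM in CD26- NFs in control medium and tumour CM, and 25.6 to 31.3 and 32.6 to 45.0 in CD26+ NFs. Of the 5 tested, Cd14 rose by 0.67 ± 0.23 in CD26+ NFs (edgeR FDR = 0.0383), in the direction of Mmp12 there, and the other 4 did not pass. In CD26- NFs 0 of the 5 passed with edgeR, 0 with DESeq2 and 0 at an unadjusted p under 0.05. Ptprc, Adgre1, Itgam, C1qa, C1qb, Fcgr1 and Spi1 held at most 3 counts in every library. The part of the macrophage markers in the Mmp12 result was not tested.

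Summed over the 7 genes, the level per kb of exon rose from 67.5 ± 4.58 CPM per kb (SD, n = 3) to 808 ± 321 (SD, n = 6) in CD26- NFs and from 10.3 ± 0.727 (n = 3) to 812 ± 564 (n = 6) in CD26+ NFs. Mmp3 made up 77.2% of that sum in CD26- controls, 62.0% in CD26+ controls, and 89.2% and 88.0% in tumour CM. Mmp10 came next in all 4 groups, with 11.7%, 16.7%, 7.76% and 8.82% in the same order. Of 10 tested epithelial markers, 0 passed the edgeR test with tumour CM in either cell type. At an unadjusted p under 0.05 there was 1 in CD26- NFs, Krt14, a basal keratin that DESeq2 also called, and 0 in CD26+ NFs, where DESeq2 called 0. Some genes of other marker lists did pass the edgeR test with tumour CM. Over all genes, the shares passing were 15.2% for the CD26- cells and 28.6% for the CD26+ cells, counting both directions. Of 6 tested bone and cartilage markers, 3 fell in CD26- and 5 in CD26+ NFs. Of 4 tested endothelial markers, 1 rose in each cell type. Of the 12 fibroblast markers, 4 rose and 2 fell in the CD26- cells against 4 and 5 in the CD26+ cells, whose summed fibroblast marker level was 62896 to 79924 CPM in control medium and 29641 to 52604 in tumour CM. The part of these markers in the tumour CM results was not tested.

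**Figure D2:**
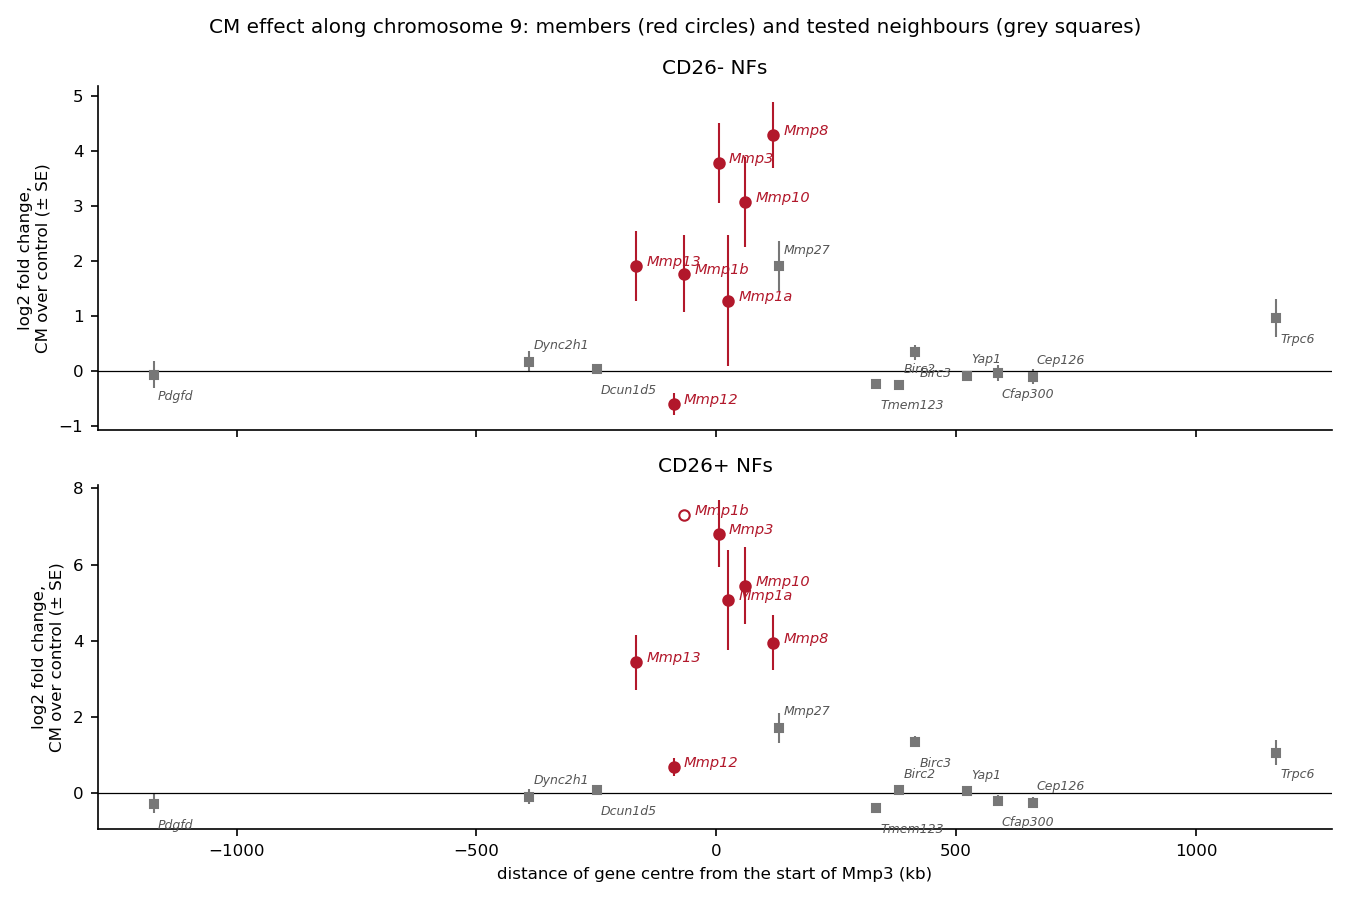
Log2 fold change of tumour CM over control medium (± SE) against distance from the start of Mmp3 in kb, for the 7 genes (red circles) and the 11 tested neighbours (grey squares), in CD26- NFs above and CD26+ NFs below; the open circle is a fitted value for Mmp1b, whose CD26+ controls held 0 counts, and is no bound. The largest change among neighbours was that of Mmp27, at 1.91 in CD26- and 1.71 in CD26+ NFs.

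The neighbours within 1 Mb of the 7 genes were 31 in the table, of which 14 had no count in any library and 11 were tested. Tumour CM raised 1 and lowered 1 of the 11 in CD26- cells, and raised 3 and lowered 1 in CD26+ cells. Over all genes tested, 7.88% rose and 7.28% fell in CD26- cells, and 15.2% rose and 13.4% fell in CD26+ cells. Mmp27, another metalloproteinase of the same stretch (7571396 to 7581885), rose by 1.91 ± 0.46 in CD26- NFs (edgeR FDR = 0.00982) and by 1.71 ± 0.39 in CD26+ NFs (edgeR FDR = 0.00332) on the log2 scale, from 0.494 to 1.86 and from 0.838 to 2.75 CPM. Mmp20, the enamel protease, and Mmp7, an epithelial metalloproteinase, had 0 counts in all 18 libraries. Beyond the metalloproteinases, Birc3, an inhibitor of apoptosis, rose by 1.36 ± 0.14 in CD26+ NFs (edgeR FDR = 3.63e-06) and Trpc6, a calcium channel, by 1.06 ± 0.33 (edgeR FDR = 0.0220). Tmem123 fell by 0.38 in CD26+ NFs and Birc2 by 0.26 in CD26- NFs.

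The cell types were then compared within each medium. In control medium 3 of the 7 genes were lower in CD26+ than in CD26- NFs (Mmp12, Mmp3 and Mmp1b) and 0 were higher, while 25.4% of all genes were lower and 25.0% higher. The differences were -2.09 ± 0.26 for Mmp12 (edgeR FDR = 3.21e-06) and -3.03 ± 0.80 for Mmp3 (edgeR FDR = 0.00408) on the log2 scale. Mmp1b averaged 0.301 CPM in CD26- controls, at least 1.31-fold above the floor of the CD26+ controls (edgeR FDR = 0.0435), and that call was lost in 12 of 18 fits that left out a single library (replicates 1 to 7, 10, 11, 12, 14 and 15), with an edgeR FDR of up to 0.0899. The edgeR FDR was 0.116 for Mmp10 and 0.139 for Mmp13, over the threshold, although all CD26- controls lay above all CD26+ controls for both. DESeq2 called Mmp10 lower (DESeq2 FDR = 0.0250), and without both 13-MCB-138 libraries Mmp10 and Mmp13 passed (edgeR FDR = 0.0226 and 0.0400). Of the 10 epithelial markers 9 were also lower in CD26+ NFs, as were 2 of 5 tested macrophage markers, Cd14 by -1.23 ± 0.26 (edgeR FDR = 0.000662) and Cd68 by -0.70 ± 0.28 (edgeR FDR = 0.0436). Of 4 tested endothelial markers 2 were lower, Vwf by -3.26 ± 1.01 and Cdh5 by -2.17 ± 0.47. Fibroblast markers went the other way, with 10 of 12 higher and 1 lower, and their summed level was 16667 to 18641 CPM in CD26- and 62896 to 79924 in CD26+ controls. The part of these markers in the differences was not tested.

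In tumour CM, Mmp12 remained lower in CD26+ NFs by -0.80 ± 0.17 (edgeR FDR = 0.000748) and Mmp8 was lower by -1.37 ± 0.34 (edgeR FDR = 0.00215), while Mmp1a was higher by 1.74 ± 0.63 (edgeR FDR = 0.0246), all on the log2 scale. Mmp1a had entered the test mainly through the CD26+ tumour CM libraries, where it was highest, so its call is not independent of the filter. The Mmp1a call was lost without replicate 6, 7, 13, 14 or 17 (edgeR FDR of up to 0.0779). Of all genes, 29.3% were lower and 29.3% higher, and the 3 of 7 are not read against that share. Mmp3 differed by -0.00 ± 0.48 (edgeR FDR = 0.998), Mmp10 by 0.18 ± 0.54 (edgeR FDR = 0.795) and Mmp13 by -0.02 ± 0.44 (edgeR FDR = 0.978), and their ranges overlapped. Again 9 of 10 epithelial markers were lower in CD26+ NFs, as was 1 of 4 endothelial ones (Cdh5). So were 3 of 5 macrophage markers (Cd68 by -1.08 ± 0.19, Cd14 by -0.86 ± 0.17 and Mrc1 by -1.22 ± 0.39). Of 3 neutrophil markers, 2 were lower and 1 was higher. Higher were also 9 of 12 fibroblast markers and 3 of 6 tested bone and cartilage markers, with 0 lower in either list. The part of all these markers was not tested. With the tumour line as a block, Mmp1b also passed as higher in CD26+ NFs (edgeR FDR = 0.0318, against 0.261 without the block). In that fit Mmp3 differed by -0.42 ± 0.30 (edgeR FDR = 0.249), Mmp10 by -0.07 ± 0.18 (0.757) and Mmp13 by -0.17 ± 0.15 (0.348).

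**Figure D3:**
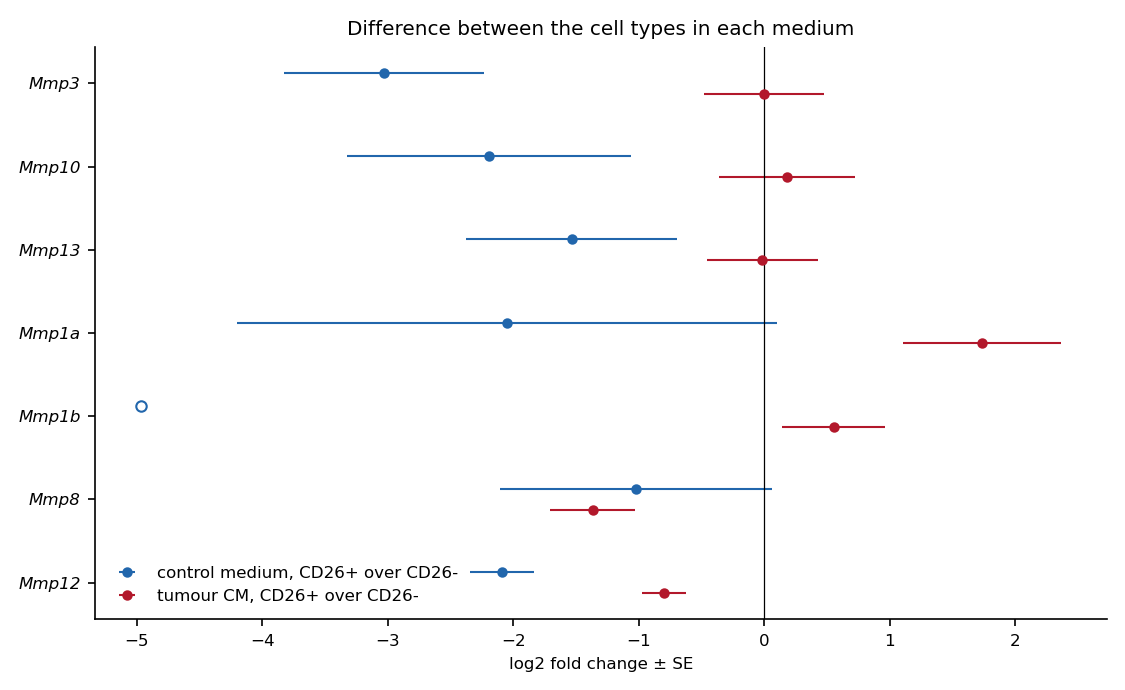
Log2 fold change of CD26+ over CD26- NFs (± SE) for each of the 7 genes, in control medium (blue) and in tumour CM (red); the open circle is a fitted value for Mmp1b, whose CD26+ controls held 0 counts, and is no bound. Mmp3 moved from -3.03 in control medium to -0.00 in tumour CM, whereas Mmp8 stood at -1.02 ± 1.09, which did not pass (edgeR FDR = 0.459), and at -1.37.

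The difference between the 2 effects of tumour CM was tested as an interaction, with each effect taken against the control libraries of its own cell type. Only Mmp12 passed, with a difference of 1.29 ± 0.31 on the log2 scale (edgeR FDR = 0.0187), where 4.53% of all genes had a positive and 3.01% a negative difference. Mmp3 had a larger difference, 3.03 ± 0.92, that narrowly missed the threshold (edgeR FDR = 0.0526). The lines pair the tumour CM libraries, and with the tumour line as a block 5 of the 7 passed, all with a positive difference, as had 9.42% of all genes in that fit (17.6% in either direction): Mmp12 (edgeR FDR = 0.00363), Mmp1b (0.00491), Mmp10 (0.00920), Mmp3 (0.0104) and Mmp13 (0.0198). Mmp8 did not pass in either fit (edgeR FDR = 0.899 and 0.710 with the block). The Mmp12 call was lost without replicate 3 (edgeR FDR = 0.0652) or replicate 11 (edgeR FDR = 0.0814), both control libraries.

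In tumour CM the levels of these genes varied between the libraries of the tumour lines. Each line gave a single library per cell type, so within a cell type a line and its culture cannot be told apart. Mmp3, described here, did not pass the test of the lines given below (edgeR FDR = 0.155). Medium of 13-MCB-138 gave the lowest level of 6 of the 7 genes in CD26- NFs, all but Mmp12, and of 7 of 7 in CD26+ NFs. In CD26- NFs Mmp3 was at 1143 CPM with 13-MCB-17, 1802 with 10-SJK-221, 1519 with 18-MCB-12, 882 with 13-MCB-44, 1818 with 13-MCB-90 and 588 with 13-MCB-138. The CD26+ NFs gave 1804, 2404, 1001, 548, 1900.0 and 84.7 CPM in the same order. The highest line was thus 3.09 times the lowest in CD26- and 28.4 times in CD26+ NFs, and 2.06 and 4.39 times without 13-MCB-138. Medium of 13-MCB-138 still left Mmp3 6.26-fold above the mean control in CD26- and 7.37-fold in CD26+ NFs, and Mmp8 8.30-fold and 6.45-fold above it. The other genes lay nearer to control, Mmp10 at 1.98 and 2.59 times, Mmp13 at 1.18 and 1.46 times and Mmp12 at 0.673 and 0.905 times the mean control. Mmp1a and Mmp1b held 1 and 3 counts in that CD26- library and 1 and 2 in the CD26+ one.

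**Figure D4:**
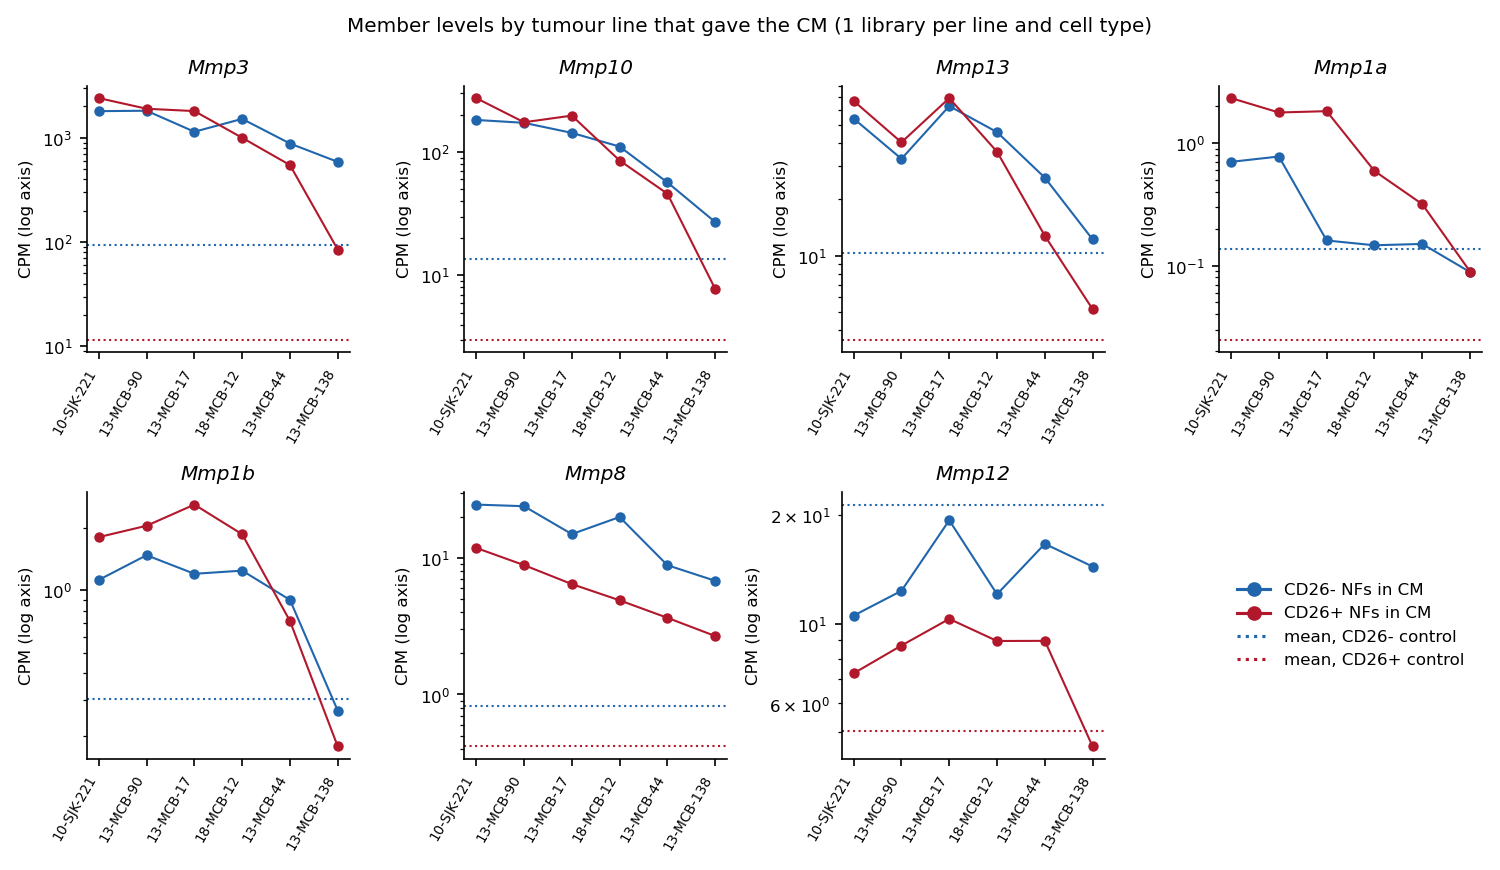
Level of each gene in CPM on a log axis by the tumour line that gave the CM, with lines ordered by Mmp3 in CD26+ NFs; each point is a single library (blue CD26- NFs, red CD26+ NFs), joined only to guide the eye, and dotted lines are control means. For Mmp10 the CD26+ level ran from 273 with 10-SJK-221 to 7.77 with 13-MCB-138, and Mmp12 showed no such slope in CD26- NFs.

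Mmp10 spanned 6.72-fold between lines in CD26- and 35.1-fold in CD26+ NFs, and Mmp13 spanned 5.14-fold and 13.4-fold. Without 13-MCB-138 these spans were 3.21-fold and 5.95-fold for Mmp10 and 2.41-fold and 5.42-fold for Mmp13. Mmp8 spanned 3.62-fold and 4.42-fold, with 10-SJK-221 the highest in both cell types, and Mmp12 only 1.84-fold and 2.26-fold (1.84-fold and 1.42-fold without 13-MCB-138). In a test of the 6 lines over both cell types (12 libraries, 13344 genes), 4 of the 6 genes tested differed between lines: Mmp8 (edgeR FDR = 0.00530), Mmp10 (0.00939), Mmp13 (0.0107) and Mmp1b (0.0347). The share over all genes was 6.56%. Mmp3 (edgeR FDR = 0.155) and Mmp12 (edgeR FDR = 0.317) did not pass, and Mmp1a was filtered out there. The Mmp1b call was lost in 9 of 12 fits that left out a single library (replicates 5, 6, 8 and 13 to 18, edgeR FDR of up to 0.109) and without both 13-MCB-138 libraries (edgeR FDR = 0.241), where Mmp3 passed (edgeR FDR = 0.0409).

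As deviations from group means over the 18 libraries, Mmp3 and Mmp10 had a Pearson r of 0.967, Mmp10 and Mmp13 0.944, and Mmp12 with the other 6 genes 0.04 to 0.45. These libraries share tumour lines, so the values are descriptions. Of 11120 genes outside the cluster, those most like Mmp3 were Pdpn (podoplanin, r = 0.973), Glrx (0.964) and P2ry2 (0.963). Itga4 (integrin alpha 4, r = 0.980), Lrig1 (0.971) and Tm4sf1 (0.970) were most like Mmp10. For Mmp13 they were Epb41l1 (0.957), Glrx (0.951) and Ptges (a prostaglandin E synthase, 0.948). Mmp8 was closest to Ptgr1 (0.870), Raet1e (0.866) and Abcf1 (0.865), and Mmp12 to Pdgfa (0.879), Oacyl (0.862) and Traf3 (0.829).

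Of 11 tested metalloproteinase genes elsewhere in the genome, tumour CM raised 3 and lowered 2 in CD26- cells, against 3 and 3 in CD26+ cells, with log2 changes of at most 1.14 in size. It raised 7.88% and lowered 7.28% of all genes in CD26- cells, and raised 15.2% and lowered 13.4% in CD26+ cells. Mmp9, a gelatinase, went from 281 to 140 CPM in CD26- NFs (-1.01 ± 0.31, edgeR FDR = 0.0380) and from 56.1 to 123 CPM in CD26+ NFs (1.14 ± 0.35, edgeR FDR = 0.0203). Mmp14, a membrane-bound collagenase, fell by 0.26 and 0.38 on the log2 scale, and Mmp16 rose by 0.91 ± 0.21 and 1.06 ± 0.20. Of 4 tested inhibitor genes, 0 passed in CD26- NFs with edgeR and 0 with DESeq2, and 1, Timp3, had an unadjusted p under 0.05. In CD26+ NFs Timp1, Timp2 and Timp3, which block these proteases, rose by 0.40 ± 0.11, 0.24 ± 0.04 and 0.79 ± 0.14. Of 6 tested genes of proenzyme activation, Plau (urokinase) fell by 0.66 in CD26+ NFs and 0 passed in CD26- NFs with edgeR or DESeq2, where 1, Plat, had an unadjusted p under 0.05.

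Among regulators, 1 of 8 AP-1 genes rose in each cell type: Fosl1 in CD26- NFs (0.72 ± 0.20, edgeR FDR = 0.0230) and Jun in CD26+ NFs (0.91 ± 0.18, edgeR FDR = 0.00117). Of 13 Ets, Runx and C/EBP genes, tumour CM raised 2 and lowered 3 in CD26- cells, and raised 3 and lowered 4 in CD26+ cells, where Ets1 rose by 0.52 ± 0.08 and Ets2 by 0.74 ± 0.13 while Runx2 fell by 0.75 and Fli1 by 1.06. Of 17 genes for inducing cytokines, growth factors and their receptors, 5 rose and 3 fell in each cell type. Il1a, a cytokine that induces stromelysins in fibroblasts, rose by 2.23 ± 0.36 in CD26- NFs (edgeR FDR = 0.000722) and by 3.70 ± 0.60 in CD26+ NFs (edgeR FDR = 0.000210). Il6 rose by 1.60 ± 0.32 and 2.99 ± 0.35, and Lif by 1.52 ± 0.17 in CD26+ NFs. Il17ra, a receptor subunit for interleukin 17, fell by 0.59 and 1.34 (edgeR FDR = 0.0425 and 3.74e-05). Of 14 matrix substrate genes, the CD26- cells had 1 higher and 2 lower in tumour CM, and the CD26+ cells 3 higher and 7 lower. Dcn (decorin) rose by 2.64 ± 0.30 and 3.19 ± 0.31 and Tnc (tenascin C) by 1.14 ± 0.16 in CD26+ NFs on the log2 scale, where Vcan (versican) fell by 0.97 and Col2a1 (a cartilage collagen) fell by 3.32.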

How the data were processed

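Poly(A) RNA of 18 cultures was made into stranded libraries and sequenced single-end. The authors deposited raw counts by Ensembl gene, without normalization; their processing notes name HISAT2 2.1.0, HTSeq and GRCm38, and the annotation release and strand setting were not given in the sources used here. The single row without a gene held 0 counts. Groups and tumour lines follow the labels. The full genotype of the tumour model is not reported here.

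Genes were kept with filterByExpr by group, scaled by TMM and tested in R 4.3.3 with edgeR 4.0.16 (quasi-likelihood, a term for each of 4 groups, Benjamini-Hochberg FDR under 0.05 over 14273 genes). Standard errors (SE) are the log2 fold change over the root of the F value. The study's methods name DESeq2 with an added log2 limit of 2; DESeq2 1.42.0 and that limit were run as alternatives, beside RLE scaling, no filter, the compared groups alone, each library left out, and a block for the tumour line. Leaving out both 13-MCB-138 libraries was chosen after seeing the data. CPM values use TMM-scaled library sizes, and CPM per kb divides by union exon length (GENCODE M21). The script was tested on simulated data.

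The 12 tumour CM libraries pair by line, per the labels: deviations from group means correlated at 0.247 to 0.406 within all 6 pairs, and each library matched its own line best. Intervals and floors of 3 counts cover counting error only. The members and lists were chosen with earlier results of these data known. All 7 members are named. From a list, at most 4 genes with the smallest p in CD26+ NFs are named, and any metalloproteinase, inhibitor or tested neighbour within 1 Mb. Marker genes named outside these rules (such as Krt14 and Cd68) were chosen after their values were seen. The 3 genes most like a member are named for members of at least 5 CPM in a group.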

Additional observations from a re-analysis of the deposited data

Results flagged for a closer look

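Mmp12 responded to tumour CM differently in the 2 cell types: its change was -0.60 in CD26- and 0.70 in CD26+ NFs on the log2 scale, a difference of 1.29 ± 0.31 (edgeR FDR = 0.0187, quasi-likelihood test of the interaction). The FDR ranged from 0.00168 to 0.0814 over the 23 alternatives. On the CPM scale no library passed Dixon's 95% critical value for gaps (0.625) in the 14 sets of 6 tumour CM libraries examined. On the log2 scale, chosen after seeing the data, 1 of 14 did: Mmp1b in CD26- NFs with 13-MCB-138 medium, with a gap of 0.713 of the range. Chance flags about 1 in 20 sets. The 13-MCB-138 library was the lowest in 13 of the 14 sets.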

How the results depend on the processing

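Of 891 values of single genes under alternatives, 799 stayed on the same side of the threshold, 65 lost the call, 27 gained it and 0 changed sign where a call was involved. In CD26+ NFs the rise of Mmp3, Mmp10, Mmp13, Mmp8, Mmp1a and Mmp1b passed in all 23 alternatives, as did that of Mmp3 and Mmp8 in CD26- NFs; Mmp8, Mmp1a and Mmp1b passed the filter only through tumour CM libraries, so their passing is no sign of stability. With single libraries left out, the count of genes past the threshold was 2 to 6 for the CM effect in CD26- NFs (2 without replicate 1, 2 or 3, all controls), where 5.69% to 19.3% of all genes passed. It was 6 to 7 in CD26+ NFs (19.0% to 34.9%), 2 to 4 between cell types in control medium (42.1% to 52.4%), 2 to 4 in tumour CM (55.3% to 59.3%), 0 to 3 for the difference in CM effect (2.33% to 16.4%; 0 without replicate 3 or 11, 2 without replicate 16, 3 without replicate 18) and 3 to 6 among lines (2.67% to 15.3%). With the log2 limit of 2 the counts were 3 in CD26- NFs (0.904% of all genes), 6 in CD26+ NFs (2.01%), 3 between cell types in control medium (5.97%), 0 in tumour CM (4.16%) and 0 for the difference (0.392%). The difference in CM effect gave 2 with DESeq2 (11.1% of all genes passed), 2 with no filter on low counts (2.40%) and 5 with the replicate block of the tumour line (17.6%), against 7.53% in the fit reported; the block was run for this difference and for the cell types in tumour CM, where Mmp1b was the only call it changed. Without both 13-MCB-138 libraries it gave 3 (16.9% of all genes), and the cell types in control medium gave 5 (52.6% of all genes). With no filter on low counts all 7 genes differed among lines (8.33% of all genes, 2475 of 29724). The cause of these shifts was not tested. Over all genes the block raised the count for the difference from 1075 to 2516, leaving out the 13-MCB-138 libraries to 2412, DESeq2 gave 1588 there and 1373 against 876 among lines. RLE scaling and DESeq2 moved the median of all genes by at most 0.0092 (log2). Calls gained without a single library were Mmp1b in CD26- NFs (without replicate 9 or 18), Mmp10 in control medium and Mmp1b in tumour CM (18), the difference for Mmp3 (16 or 18) and Mmp1b (18), and among lines Mmp3 (9 or 18) and Mmp12 (9). Depth limits Mmp1a, Mmp1b and Mmp8 in control medium.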
